A study of Homo sapiens with 6 samples.

Results

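The cholesterol synthesis genes and the sterol regulatory element-binding protein (SREBP) machinery were examined in HK-2 cells exposed to oxidised low-density lipoprotein (OX-LDL). The 30 genes were chosen by name: 20 enzymes in pathway order from ACAT2 to DHCR7, 7 genes of the SREBP system, and 3 genes of intracellular cholesterol transport. They and the other lists below were chosen with earlier results of these data known. All 30 were found among the 58825 genes of the deposited table, and all 30 passed the minimum mean of 0.1 FPKM (fragments per kilobase of transcript, adjusted to the library size) that left 19510 genes for testing. HK-2 is an immortalised human line of kidney proximal tubular cells, and OX-LDL particles carry lipids and protein that have been oxidised. The 3 Control libraries came from untreated HK-2 cells, for which the labels give no time, and the 3 OX-LDL libraries came from HK-2 cells kept for 48 h with OX-LDL at 25 μg/ml. Both groups are thus of 1 cell line, with no transgene or knockout named. The paper's culture methods place starvation in low-serum medium before OX-LDL, and do not say whether Control cells were starved as well. The labels do not say that the libraries of a group came from separate cultures, so p-values measure only the spread between these samples, which may be technical.

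Cholesterol is built from acetyl-CoA, first through HMG-CoA, mevalonate and the isoprenoid diphosphates, then through squalene and lanosterol, and at last by a series of reductions, demethylations and isomerisations in the endoplasmic reticulum. When sterol in that membrane is low, the escort protein SCAP carries SREBPs to the Golgi, where a pair of proteases release a transcription factor that switches on the enzymes of synthesis. When sterol is high, INSIG proteins hold SCAP in the endoplasmic reticulum, and cholesterol taken up in lipoproteins reaches that membrane by way of lysosomal NPC2 and NPC1.

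Total estimated counts were 62561347 to 76797607 per library. An excess of genes at 4, 8 and 12 counts puts about 4 counts on each read pair, so precision is lower than the totals imply. Of the renal epithelial markers, PAX8, GGT1 and MME reached 1 FPKM in every library, while the mature proximal tubule genes LRP2, CUBN, ANPEP and SLC34A1 stayed under 0.1 FPKM in all 6. Of the epithelial markers, 4 of 5 reached 1 FPKM, the exception being CDH1 at 0.0276 to 0.144 FPKM, and their sum was 129 to 153 FPKM in Control and 178 to 225 FPKM in OX-LDL. None of 4 fibroblast markers reached 1 FPKM, and the 4 endothelial markers were all under 0.1 FPKM. Of the 4 leukocyte markers, the defining PTPRC and CD3E were under 0.1 FPKM, and the summed level of 3.11 to 7.74 FPKM in Control and 9.16 to 14.0 FPKM in OX-LDL was mostly CD68. The part of these marker levels in the results was not tested. In bulk RNA, fewer cells of a type and less RNA per cell cannot be told apart.

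Most of the 20 enzymes were more abundant after OX-LDL, led by HMGCS1, IDI1 and SQLE, and PMVK was less abundant. By edgeR's quasi-likelihood test at an adjusted p under 0.05, 13 of the 30 genes rose, where 7.91% of all tested genes rose, and 1 of the 30 fell, where 7.42% of all tested genes fell. The log2 fold change, OX-LDL over Control, was above 0 for 25 of the 30 genes and had a median of 0.43, against 0.0 over all tested genes. In 17 of the 30 genes every OX-LDL library lay above every Control library in FPKM, as it did for 16.8% of tested genes. In 2 of the 30, PMVK and MBTPS1, every OX-LDL library lay below, as it did for 20.5% of tested genes. The rises were mostly among the enzymes: 11 of 20 enzymes rose, 1 fell and 8 did not pass the test, with a median log2 fold change of 0.48. Among the 10 SREBP and transport genes, INSIG1 and STARD4 rose and the other 8 did not pass, with a median of 0.22. The difference between these subsets was not tested. Without Control 2, 8 of the 30 genes passed the test as higher, and PMVK passed it in no fit that left out a library.

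**Figure D1:**
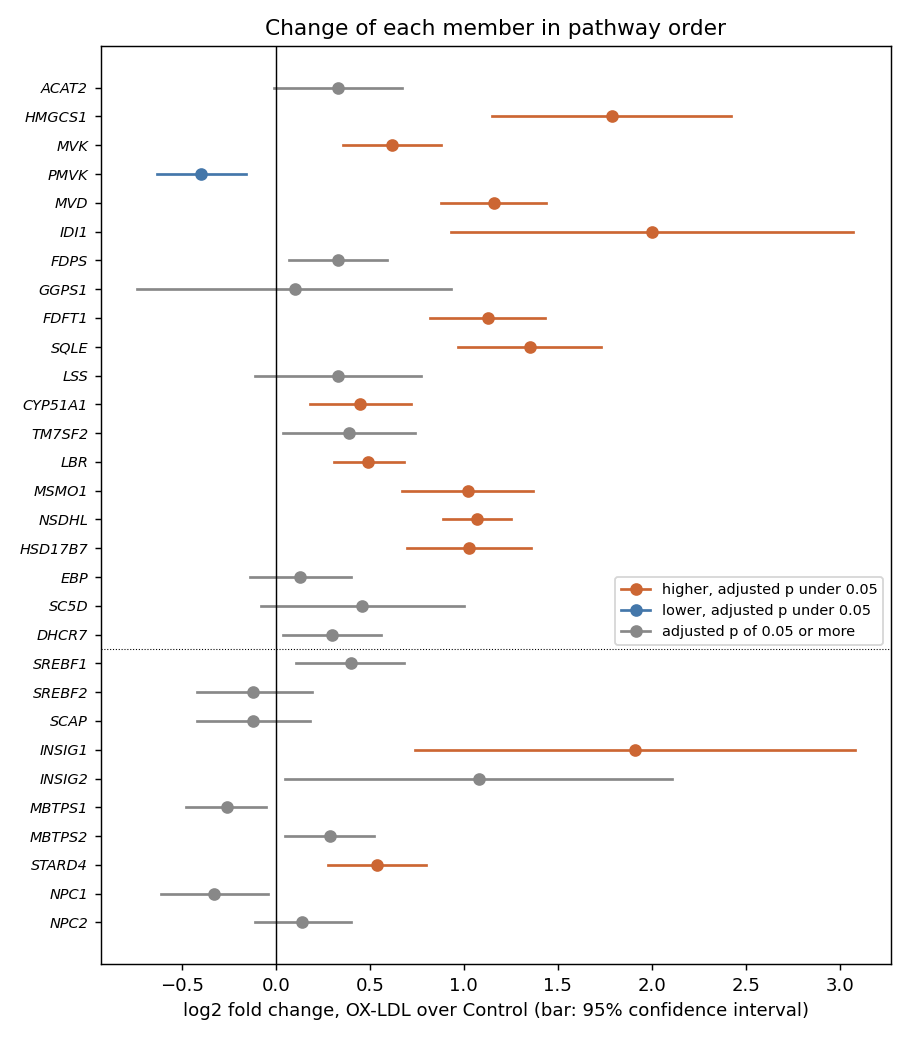
Log2 fold change (x axis, OX-LDL over Control) of the 30 genes in pathway order (y axis), with the 95% confidence interval as a bar and enzymes above the dotted line. The 13 orange points passed the test as higher, PMVK (blue) passed as lower, and the intervals of IDI1, INSIG1 and INSIG2 are the widest among the genes with a log2 fold change above 1.

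The 20 enzymes summed to 312, 282 and 264 FPKM in Control replicates 1 to 3 and to 428, 492 and 433 FPKM in OX-LDL replicates 1 to 3. The means were 286 ± 24.2 and 451 ± 35.5 FPKM (SD, n = 3 each), a ratio of 1.58. Without HMGCS1, IDI1 and SQLE, which had the largest log2 fold changes of the 20, the sums were 268, 249 and 237 FPKM in Control and 336, 385 and 328 FPKM in OX-LDL. The groups did not overlap in either sum. Among the 13 genes that rose, Control 1 was the highest Control library in 10 and Control 3 the lowest in 8, while OX-LDL 2 was the highest OX-LDL library in 9.

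By the annotation in the deposited table, 19 of the 30 genes are in the endoplasmic reticulum membrane, which is 63.3% of them and 3.97% of all tested genes. The genes lie on 18 chromosomes. The closest pair, PMVK and FDPS on chromosome 1, is 372 kb apart on GRCh38, and of these neighbours PMVK fell while FDPS did not pass the test. Reads of an overlapping gene or pseudogene with over 10% of a member's counts could bear on 6 of the 30, and these are named beside their values. The libraries were made by a strand-keeping method, but whether the counting used strand is not given in the sources used here.

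The promoters of genes that rose are shown because the SREBPs act on such sequences with NF-Y, a factor that binds CCAAT. RefSeq start sites on GRCh38.p14 were held for 27 of the 30 genes, with ACAT2, FDFT1 and SQLE not analysed here. The first 6 windows below belong to genes that passed the test as higher in every alternative fit, those leaving out a library included, PMVK is the gene that fell, and SREBF2 encodes an SREBP and did not pass the test. Each window is the 200 bases before the start site, 5′ to 3′ on the gene's strand. The start sites lie 0 to 100 bases inside the 5′ ends given in the deposited table. Capitals mark CCAAT on either strand (ATTGG on the other) and the shortened sterol regulatory element core TCACNCC on either strand.
HMGCS1, chr5:43313413-43313612, minus strand: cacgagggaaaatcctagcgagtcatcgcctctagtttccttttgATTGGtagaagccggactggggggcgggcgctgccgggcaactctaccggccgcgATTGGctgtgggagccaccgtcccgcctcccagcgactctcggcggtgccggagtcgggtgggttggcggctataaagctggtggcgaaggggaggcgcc
MVD, chr16:88663092-88663291, minus strand: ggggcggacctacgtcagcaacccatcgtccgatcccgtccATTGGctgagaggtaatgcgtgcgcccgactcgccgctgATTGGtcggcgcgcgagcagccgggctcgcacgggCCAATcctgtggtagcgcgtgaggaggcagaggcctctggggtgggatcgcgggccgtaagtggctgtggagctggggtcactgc
LBR, chr1:225428822-225429021, minus strand: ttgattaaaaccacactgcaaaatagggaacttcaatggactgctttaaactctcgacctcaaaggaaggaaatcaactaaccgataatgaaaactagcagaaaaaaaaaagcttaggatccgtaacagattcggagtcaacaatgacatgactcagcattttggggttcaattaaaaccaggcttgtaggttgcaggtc
MSMO1, chr4:165327469-165327668, plus strand: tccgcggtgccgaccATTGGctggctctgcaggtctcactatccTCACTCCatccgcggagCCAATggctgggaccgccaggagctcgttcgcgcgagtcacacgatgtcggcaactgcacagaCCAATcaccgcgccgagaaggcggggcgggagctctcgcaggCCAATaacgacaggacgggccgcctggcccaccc
NSDHL, chrX:152830863-152831062, plus strand: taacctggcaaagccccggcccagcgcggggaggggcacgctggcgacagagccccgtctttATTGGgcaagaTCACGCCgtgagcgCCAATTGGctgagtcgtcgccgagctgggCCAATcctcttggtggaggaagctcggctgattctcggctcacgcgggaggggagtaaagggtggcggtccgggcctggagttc
HSD17B7, chr1:162790502-162790701, plus strand: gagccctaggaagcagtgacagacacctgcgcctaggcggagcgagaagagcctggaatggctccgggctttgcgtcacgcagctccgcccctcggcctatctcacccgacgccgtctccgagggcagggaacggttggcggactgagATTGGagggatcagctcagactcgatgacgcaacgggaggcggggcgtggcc
PMVK, chr1:154936720-154936919, minus strand: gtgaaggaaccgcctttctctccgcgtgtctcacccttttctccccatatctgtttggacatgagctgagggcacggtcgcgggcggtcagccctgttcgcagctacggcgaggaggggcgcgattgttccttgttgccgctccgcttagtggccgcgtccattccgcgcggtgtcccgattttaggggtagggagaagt
SREBF2, chr22:41832905-41833104, plus strand: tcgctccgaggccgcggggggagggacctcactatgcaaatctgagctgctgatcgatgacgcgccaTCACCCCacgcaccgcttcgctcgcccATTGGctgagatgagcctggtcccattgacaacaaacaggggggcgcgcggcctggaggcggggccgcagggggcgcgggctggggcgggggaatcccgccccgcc

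These windows held 2, 3, 0, 4, 4, 1, 0 and 1 CCAAT boxes in the order shown, counting CCAAT and ATTGG that overlap in NSDHL as 2. Over 300-base promoters, from 250 before to 50 after the start site, 18 of the 27 genes held CCAAT on either strand, or 66.7%, against 43.1% of the 10995 tested genes with a promoter. At least 2 boxes stood in 12 of the 27 (44.4%), against 16.1% of those tested genes. Of the 11 matched genes that rose and the other 16, at least 1 box stood in 9 and 9, at least 2 in 8 and 4, and at least 3 in 5 and 2. This split was not tested. LBR and CYP51A1 rose with no box in these promoters, and PMVK fell with none. The 9 other genes with a box, FDPS and EBP among them, did not pass the test.

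The core TCACNCCAC of the sterol regulatory element was found in the promoter of 1 of the 27 genes, SREBF2, 133 bases before its start site, and in 1.46% of tested genes with a promoter. The shorter TCACNCC, chosen after that search, was found in 8 of the 27 (29.6%) and in 20.5% of those tested genes. The 8 were HMGCS1, IDI1, INSIG2, MSMO1, MVK, NPC2, NSDHL and SREBF2, of which 5 rose. The match in HMGCS1 lies 20 bases after the start site of the window printed above, and so outside it. The GC box GGGCGG was in 23 of the 27 (85.2%) against 75.4%, and the E-box CACGTG in 4 of the 27 (14.8%) against 12.7%. Such matches describe letters and not binding.

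Of the 6 genes from acetyl-CoA to the isoprenoid building block, HMGCS1, MVK, MVD and IDI1 rose, PMVK fell and ACAT2 did not pass the test. ACAT2, which condenses acetyl-CoA units in the cytosol, read 32.7, 28.6 and 25.8 FPKM in Control and 33.6, 42.3 and 31.3 FPKM in OX-LDL. The groups overlapped, and the log2 fold change was 0.33 (95% interval -0.01 to 0.67; adjusted p = 0.176). ACAT2 overlaps TCP1 on the opposite strand, which held 206% of its counts.

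HMGCS1 (ENSG00000112972, chr5:43287470-43313512, minus strand) makes HMG-CoA. It read 5.33, 6.66 and 4.30 FPKM in Control and 13.1, 16.7 and 25.0 FPKM in OX-LDL. The lowest OX-LDL library stood well above the highest Control library, and the OX-LDL libraries differed among themselves more than those of Control. The means were 5.43 ± 1.18 and 18.3 ± 6.12 FPKM (SD, n = 3 each). HMGCS1 was 3.45-fold higher, a log2 fold change of 1.79 (SE 0.27; adjusted p = 0.00878).

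MVK, mevalonate kinase, read 1.94, 2.00 and 1.79 FPKM in Control and 2.85, 3.13 and 2.66 FPKM in OX-LDL. Control and OX-LDL did not overlap, and its log2 fold change was 0.62 (SE 0.11; adjusted p = 0.0146). The adjusted p was 0.0510 without Control 2 and 0.0509 without OX-LDL 1. MMAB, on the opposite strand, held 98.1% of the counts of MVK and had a log2 fold change of 0.43 (adjusted p = 0.159).

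PMVK (ENSG00000163344, chr1:154924740-154936719, minus strand), the kinase of the following step, was the gene that fell. Its FPKM was 16.6, 18.8 and 19.1 in Control and 13.5, 13.7 and 13.3 in OX-LDL. All OX-LDL libraries were below all Control libraries and close to one another. The means were 18.2 ± 1.40 and 13.5 ± 0.166 FPKM (SD, n = 3 each), a log2 fold change of -0.40 (SE 0.10; adjusted p = 0.0419). PMVK did not pass the test when any 1 library was left out, with adjusted p from 0.0616 to 0.128, nor with no minimum FPKM (0.0664). With replicate number as a block, PMVK also did not pass (0.102).

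MVD, the decarboxylase that ends the mevalonate steps (ENSG00000167508, chr16:88651935-88663161, minus strand), read 2.09, 1.92 and 1.73 FPKM in Control. In OX-LDL it read 4.38, 4.32 and 3.91 FPKM. The groups were far apart for their spread, with means of 1.92 ± 0.178 and 4.20 ± 0.253 FPKM (SD, n = 3 each). MVD was 2.23-fold higher, a log2 fold change of 1.16 (SE 0.12; adjusted p = 0.00275).

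IDI1, which isomerises the isoprenoid unit (ENSG00000067064, chr10:1039152-1049170, minus strand), read 9.96, 7.35 and 2.50 FPKM in Control and 24.0, 28.1 and 25.6 FPKM in OX-LDL. The OX-LDL libraries were alike, and Control 3 was far below the other Control libraries. Its log2 fold change of 2.00 (SE 0.45; adjusted p = 0.0295) was the largest of the 30 genes, with a 95% interval of 0.93 to 3.07. IDI1 did not pass the test without Control 2 (adjusted p = 0.0929) or without OX-LDL 1, 2 or 3 (0.0749, 0.0617 and 0.0814), and its log2 fold change lay between 1.61 and 2.44 with any 1 library left out.

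The 2 prenyl diphosphate synthases at the branch to other isoprenoids did not pass the test. FDPS, which makes farnesyl diphosphate, read 28.9, 28.0 and 27.5 FPKM in Control and 31.9, 40.2 and 31.6 FPKM in OX-LDL. The groups stood apart, OX-LDL 2 stood above the rest, and the log2 fold change was 0.33 (95% interval 0.07 to 0.59; adjusted p = 0.0921, or 0.0494 by DESeq2).

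GGPS1, which extends farnesyl to geranylgeranyl diphosphate for protein prenylation, read 15.0, 15.4 and 6.09 FPKM in Control and 10.2, 15.9 and 12.1 FPKM in OX-LDL. Control 3 was the lowest of the 6 libraries, and the groups overlapped. The log2 fold change of 0.10 had a 95% interval of -0.74 to 0.93 (adjusted p = 0.889), so the direction of any change within that interval was not resolved. Its log2 fold change was -0.22 without Control 3 and -0.09 without OX-LDL 2. ARID4B on the opposite strand held 148% of the counts of GGPS1 and TBCE on the same strand held 14.0%.

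From squalene to lanosterol, FDFT1 and SQLE rose and LSS did not pass the test. FDFT1, squalene synthase (ENSG00000079459, chr8:11795573-11839304, plus strand), commits farnesyl diphosphate to sterols. It read 14.2, 13.2 and 12.7 FPKM in Control and 23.6, 31.5 and 30.7 FPKM in OX-LDL. The groups were well apart, with means of 13.4 ± 0.786 and 28.6 ± 4.35 FPKM (SD, n = 3 each). FDFT1 was 2.19-fold higher, a log2 fold change of 1.13 (SE 0.13; adjusted p = 0.00405).

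The FPKM ratio of FDFT1 to GGPS1, the sterol against the geranylgeranyl branch, was 0.947, 0.858 and 2.08 in Control and 2.32, 1.99 and 2.53 in OX-LDL. The ratio in Control 3 lay among those of OX-LDL, so the groups overlapped.

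SQLE, squalene monooxygenase, is a rate-controlling oxygen-dependent enzyme (ENSG00000104549, chr8:124998497-125022283, plus strand). It read 28.4, 19.5 and 20.8 FPKM in Control and 55.0, 62.1 and 54.7 FPKM in OX-LDL. Every OX-LDL library was far above every Control library, and SQLE had the highest mean FPKM of the enzymes in OX-LDL, 57.3 ± 4.17 against 22.9 ± 4.81 in Control (SD, n = 3 each). The fold change was 2.55, a log2 fold change of 1.35 (SE 0.16; adjusted p = 0.00447).

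LSS, lanosterol synthase, read 4.78, 4.48 and 4.56 FPKM in Control and 4.66, 7.43 and 4.90 FPKM in OX-LDL. OX-LDL 1 lay within the range of Control and OX-LDL 2 well above it, and the log2 fold change of 0.33 (95% interval -0.11 to 0.77) did not pass the test (adjusted p = 0.283). The FPKM ratio of SQLE to LSS was 4.37 to 5.95 in Control and 8.35 to 11.8 in OX-LDL.

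**Figure D2:**
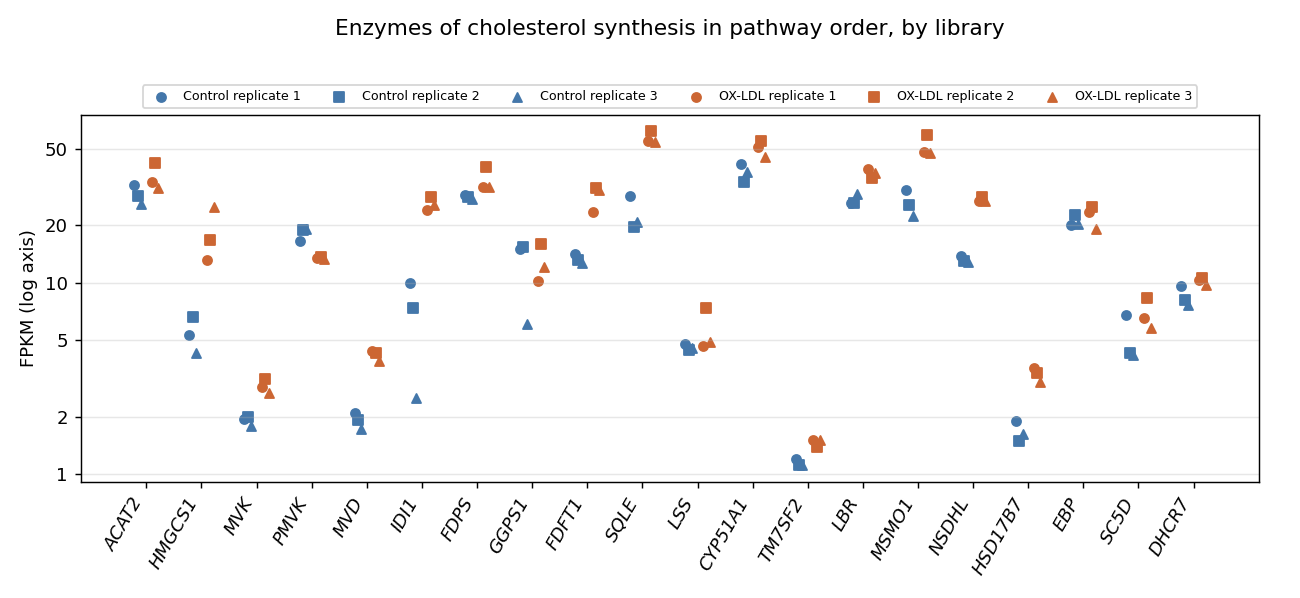
FPKM on a log axis (y axis) of the 20 enzymes in pathway order (x axis) in each library, with Control in blue, OX-LDL in orange and the marker shape giving the replicate. Every OX-LDL library lies above every Control library for 14 enzymes, among them HMGCS1, MVD, FDFT1, SQLE, NSDHL and HSD17B7. Control 3 is low for IDI1 and GGPS1, and PMVK runs the other way.

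Of the 9 enzymes from lanosterol to cholesterol, CYP51A1, LBR, MSMO1, NSDHL and HSD17B7 rose, and TM7SF2, EBP, SC5D and DHCR7 did not pass the test. All 9 log2 fold changes were above 0, with a median of 0.46. The rises stood among the demethylation enzymes and the reductase LBR.

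CYP51A1, which removes a methyl group from lanosterol, read 42.0, 33.7 and 37.8 FPKM in Control and 51.4, 55.1 and 45.4 FPKM in OX-LDL. No OX-LDL library overlapped Control, and its log2 fold change was 0.45 (SE 0.11; adjusted p = 0.0423). CYP51A1 passed the test without Control 1 (adjusted p = 0.0428) and in none of the other 5 fits that left out a library (0.0618 to 0.117). It also did not pass with no minimum FPKM (0.0576) or with replicate number as a block (0.0916).

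MSMO1, the oxidase that starts removal of the remaining methyl pair (ENSG00000052802, chr4:165327667-165343164, plus strand), read 30.6, 25.7 and 22.3 FPKM in Control and 48.5, 59.7 and 48.0 FPKM in OX-LDL. No libraries overlapped, and the means were 26.2 ± 4.17 and 52.1 ± 6.59 FPKM (SD, n = 3 each). MSMO1 was 2.03-fold higher, a log2 fold change of 1.02 (SE 0.15; adjusted p = 0.00801).

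NSDHL, the decarboxylating dehydrogenase of the same step (ENSG00000147383, chrX:152830967-152869363, plus strand), had the smallest adjusted p of the 30 genes. It read 13.9, 13.0 and 12.9 FPKM in Control and 26.7, 28.1 and 26.8 FPKM in OX-LDL. Libraries of a group were nearly equal, with means of 13.2 ± 0.533 and 27.2 ± 0.793 FPKM (SD, n = 3 each). The log2 fold change was 1.07 (SE 0.08; adjusted p = 0.00116), or 2.10-fold.

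HSD17B7, the ketoreductase that completes the step (ENSG00000132196, chr1:162790702-162812817, plus strand), read 1.89, 1.49 and 1.62 FPKM in Control and 3.59, 3.39 and 3.04 FPKM in OX-LDL. The groups were again apart, and HSD17B7 was 2.04-fold higher, a log2 fold change of 1.03 (SE 0.14; adjusted p = 0.00681). The pseudogene HSD17B7P2 held 18.9% as many counts, with a log2 fold change of 1.04 (adjusted p = 0.0751), and reads may be split between them. MSMO1, NSDHL and HSD17B7, which act in sequence, thus had log2 fold changes of 1.02, 1.07 and 1.03.

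LBR and TM7SF2 encode sterol reductases of a shared step, and LBR is also a lamin B receptor of the inner nuclear membrane. LBR (ENSG00000143815, chr1:225401502-225428855, minus strand) read 26.1, 26.1 and 29.3 FPKM in Control and 39.3, 35.3 and 37.7 FPKM in OX-LDL. The groups did not overlap, and the log2 fold change was 0.49 (SE 0.08; adjusted p = 0.0105). TM7SF2 was much less abundant, at 1.20, 1.11 and 1.11 FPKM in Control and 1.51, 1.38 and 1.51 FPKM in OX-LDL. Its libraries also did not overlap, but its log2 fold change of 0.39 (95% interval 0.04 to 0.74) did not pass the test (adjusted p = 0.128). The LBR to TM7SF2 ratio was 21.6 to 26.5 in Control and 24.9 to 26.1 in OX-LDL, so the ranges overlapped.

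The last 3 enzymes did not pass the test. EBP, the sterol isomerase, read 20.1, 22.7 and 20.3 FPKM in Control and 23.5, 24.8 and 19.1 FPKM in OX-LDL, with a log2 fold change of 0.13 (95% interval -0.14 to 0.40; adjusted p = 0.518). SC5D, the desaturase, read 6.79, 4.30 and 4.22 FPKM in Control and 6.56, 8.31 and 5.78 FPKM in OX-LDL, with a log2 fold change of 0.46 (95% interval -0.08 to 1.00; adjusted p = 0.228). The groups overlapped for both, for SC5D through Control 1. DHCR7, which makes the final reduction to cholesterol, read 9.62, 8.13 and 7.67 FPKM in Control and 10.3, 10.6 and 9.73 FPKM in OX-LDL. Its groups lay apart by a narrow gap, and its log2 fold change was 0.30 (95% interval 0.04 to 0.56; adjusted p = 0.120, or 0.0454 without Control 1).

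The genes of the SREBPs themselves did not pass the test. SREBF1, whose products act mostly on fatty acid synthesis, read 3.67, 2.93 and 3.23 FPKM in Control and 4.41, 4.49 and 3.80 FPKM in OX-LDL. Control and OX-LDL did not overlap but came close, and the log2 fold change was 0.40 (95% interval 0.11 to 0.68; adjusted p = 0.0706, or 0.0241 by DESeq2 and 0.0444 with a minimum mean of 1 FPKM). RAI1 on the opposite strand held 161% of the counts of SREBF1.

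SREBF2, whose product acts mostly on cholesterol synthesis (ENSG00000198911, chr22:41833079-41907307, plus strand), read 22.2, 21.6 and 17.2 FPKM in Control and 17.6, 20.7 and 16.8 FPKM in OX-LDL. The groups overlapped, and the log2 fold change was -0.12 (95% interval -0.42 to 0.19; adjusted p = 0.599). The SREBF2 to SREBF1 FPKM ratio was 6.04, 7.36 and 5.35 in Control and 3.99, 4.61 and 4.41 in OX-LDL. These ranges did not overlap, although neither gene passed the test and the ratio was not tested.

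SCAP, the sterol-sensing escort, read 4.74, 5.72 and 5.07 FPKM in Control and 4.22, 5.40 and 4.36 FPKM in OX-LDL. The groups overlapped, with a log2 fold change of -0.12 (95% interval -0.42 to 0.18; adjusted p = 0.583).

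INSIG1, the retention protein that SREBPs also induce (ENSG00000186480, chr7:155297776-155310233, plus strand), read 7.85, 4.85 and 3.74 FPKM in Control and 12.9, 35.7 and 12.0 FPKM in OX-LDL. All OX-LDL libraries were above Control, but OX-LDL 2 was far above the others. The means were 5.48 ± 2.13 and 20.2 ± 13.4 FPKM (SD, n = 3 each). The log2 fold change was 1.91 (SE 0.49; adjusted p = 0.0444), a 3.76-fold rise. Without OX-LDL 2 it was 1.22 (adjusted p = 0.0526), and in no fit without a library did INSIG1 pass the test, with adjusted p of 0.0526 to 0.143. The adjusted p was 0.0541 with no minimum FPKM, 0.0533 by limma on log2(FPKM + 0.1) and 0.0782 with replicate number as a block.

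INSIG2, its paralogue, read 1.93, 2.18 and 4.01 FPKM in Control and 6.60, 2.68 and 7.56 FPKM in OX-LDL. Here OX-LDL 2 was the low library and lay below Control 3, so the groups overlapped. The log2 fold change was 1.08 (95% interval 0.05 to 2.11; adjusted p = 0.148). Without OX-LDL 2 it was 1.42 (adjusted p = 0.0407), and by DESeq2 the adjusted p was 0.0250.

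The INSIG1 to INSIG2 ratio was 4.06, 2.22 and 0.931 in Control and 1.96, 13.3 and 1.59 in OX-LDL. OX-LDL 2 thus had the highest INSIG1 and the lowest INSIG2 of its group.

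The proteases that release SREBPs in the Golgi did not pass the test. MBTPS1, the luminal protease that cuts first, read 20.8, 20.1 and 23.6 FPKM in Control and 16.3, 17.7 and 18.6 FPKM in OX-LDL. Every OX-LDL library was below Control, and the log2 fold change was -0.26 (95% interval -0.48 to -0.05; adjusted p = 0.104). MBTPS2, the membrane protease that cuts next, read 7.56, 7.23 and 8.32 FPKM in Control and 9.66, 8.19 and 9.80 FPKM in OX-LDL. Its groups overlapped through OX-LDL 2, and its log2 fold change was 0.29 (95% interval 0.05 to 0.52; adjusted p = 0.101, or 0.0441 without OX-LDL 2).

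**Figure D3:**
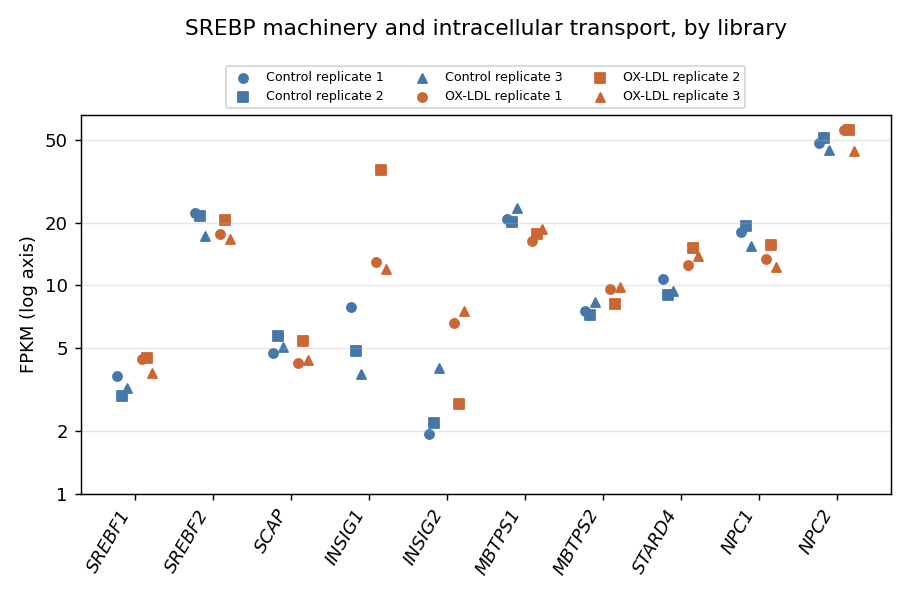
FPKM on a log axis (y axis) of the 10 SREBP and transport genes (x axis) in each library, with Control in blue, OX-LDL in orange and the marker shape giving the replicate. OX-LDL 2 is the highest of its group for INSIG1 (35.7 FPKM) and the lowest for INSIG2 (2.68 FPKM), while SREBF2 and SCAP overlap between the groups.

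Of the transport genes, STARD4 rose. STARD4, a cytosolic sterol carrier (ENSG00000164211, chr5:111496033-111512590, minus strand), read 10.7, 8.97 and 9.41 FPKM in Control and 12.5, 15.1 and 13.8 FPKM in OX-LDL. The groups stood apart, and the log2 fold change was 0.54 (SE 0.11; adjusted p = 0.0225). STARD4 did not pass the test without Control 2, Control 3 or OX-LDL 3 (adjusted p = 0.0804, 0.0667 and 0.0750), nor with replicate number as a block (0.0767).

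NPC1, which exports cholesterol through the lysosomal membrane, read 18.1, 19.4 and 15.4 FPKM in Control and 13.4, 15.6 and 12.2 FPKM in OX-LDL. The groups overlapped by OX-LDL 2 and Control 3, and the log2 fold change was -0.33 (95% interval -0.61 to -0.04; adjusted p = 0.121). RMC1 on the opposite strand held 19.6% of the counts of NPC1. NPC2, the soluble lysosomal carrier that hands cholesterol to NPC1, read 48.4, 51.4 and 44.6 FPKM in Control and 55.7, 56.0 and 44.3 FPKM in OX-LDL, with a log2 fold change of 0.14 (95% interval -0.11 to 0.40; adjusted p = 0.433). The NPC2 to NPC1 ratio was 2.65 to 2.89 in Control and 3.59 to 4.16 in OX-LDL, without overlap, although neither gene passed the test.

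Of 49 other genes around the pathway, 48 were tested, 14 rose, where 7.91% of all tested genes rose, and 34 did not pass the test, with a median log2 fold change of 0.17. The count of 14 was 6 without Control 2, OX-LDL 1 or OX-LDL 3, and 8 without Control 3. The acetyl-CoA supply had 2 of 4 rise. ACLY, which makes cytosolic acetyl-CoA from citrate, rose from 33.6, 29.8 and 33.2 FPKM in Control to 65.2, 59.4 and 61.8 FPKM in OX-LDL, with a log2 fold change of 0.98 (SE 0.08; adjusted p = 0.00157). SLC25A1, the mitochondrial citrate exporter, rose by a log2 fold change of 0.72 (adjusted p = 0.0256). ACLY passed the test in every alternative fit. SLC25A1 did not pass it without Control 2 (adjusted p = 0.0715) or without OX-LDL 1, 2 or 3 (0.0748, 0.06 and 0.0611).

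Of 6 redox partners and scaffolds of sterol enzymes, CYB5R3, a cytochrome b5 reductase (log2 fold change 0.58; adjusted p = 0.00749), and ERG28, a scaffold of the demethylation enzymes (0.60; adjusted p = 0.0306), rose. Of 7 genes of the dolichol and ubiquinone branches, NUS1 (0.42; adjusted p = 0.0223) and DOLK (0.53; adjusted p = 0.0321), both of dolichol synthesis, rose. Of 8 protein prenylation genes, FNTB, the farnesyltransferase beta subunit, rose (0.81; adjusted p = 0.00717). Of 12 genes of sterol-regulated degradation, VCP (1.05; adjusted p = 0.00125) and UFD1 (0.42; adjusted p = 0.0467) rose, which extract ubiquitinated proteins from the endoplasmic reticulum in general. Counts as small as 1 of 8 or 2 of 12 are near the 7.91% of all tested genes that rose. CYB5R3, FNTB and VCP passed the test in every alternative fit. ERG28 and NUS1 did not pass it without Control 2, Control 3, OX-LDL 1 or OX-LDL 3 (adjusted p = 0.0512 to 0.0994 and 0.0623 to 0.0810), and DOLK passed without OX-LDL 2 but not without any other library (0.0537 to 0.104), nor with no minimum FPKM (0.0508). UFD1 passed without Control 1 but not without any other library (adjusted p = 0.0831 to 0.128), nor with library size only (0.0546), with no minimum FPKM (0.0719) or by limma (0.0674 with a pseudocount of 0.1). With replicate number as a block, ERG28, DOLK and UFD1 did not pass (adjusted p = 0.0847, 0.0639 and 0.0947).

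Of 12 other sterol transfer and sensing genes, 11 were tested and 5 rose, where 7.91% of all tested genes rose. SEC23A (log2 fold change 0.63; adjusted p = 0.00399) and SEC24A (0.64; adjusted p = 0.0276) encode parts of the coat of vesicles that leave the endoplasmic reticulum. PGRMC1, a haem-binding membrane protein (0.48; adjusted p = 0.0107), and LIPA, the lysosomal cholesteryl ester hydrolase (0.32; adjusted p = 0.0398), also rose. SEC23A and PGRMC1 passed the test in every alternative fit. SEC24A did not pass it without Control 2, Control 3, OX-LDL 1 or OX-LDL 3 (adjusted p = 0.0758 to 0.0978). LIPA did not pass when any 1 library was left out (adjusted p = 0.0567 to 0.106), with library size only (0.0527), with no minimum FPKM (0.0728) or by limma (0.0542 with a pseudocount of 0.1). Nor did LIPA pass with replicate number as a block (0.0777).

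**Figure D4:**
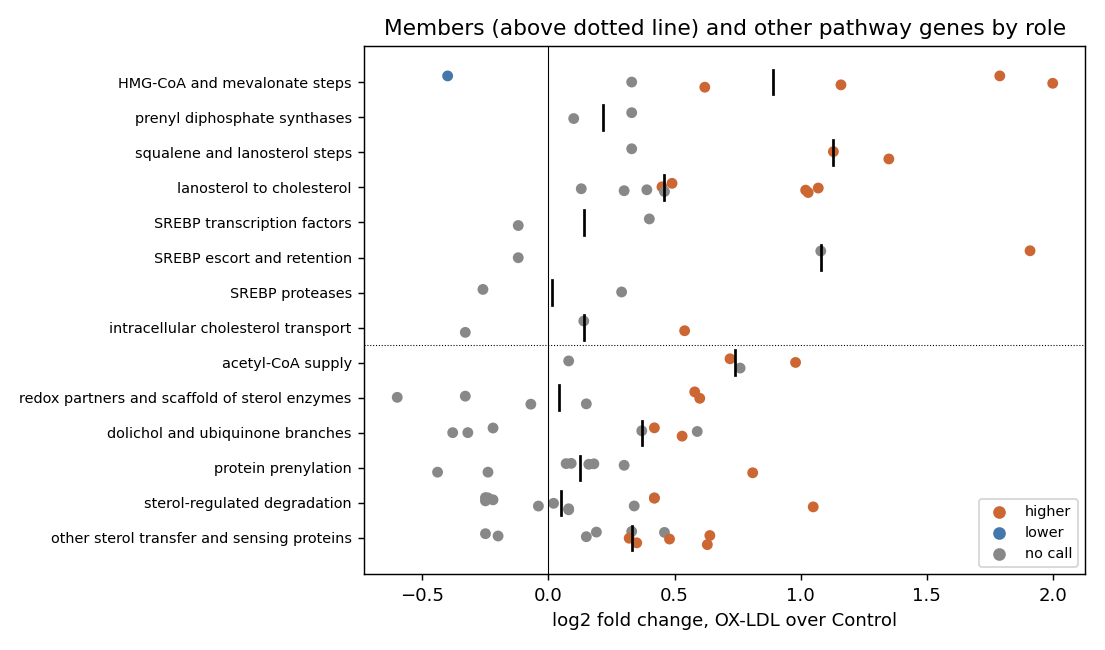
Log2 fold change (x axis, OX-LDL over Control) of each tested gene, grouped by role (y axis), with the 30 cholesterol synthesis and SREBP genes above the dotted line, other pathway genes below it, and the group median as a black bar. Orange points passed the test as higher and the blue point, PMVK, as lower; the median was 0.89 for the 6 mevalonate genes and 0.17 over the 48 other pathway genes.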

How the data were processed

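Poly(A) RNA of 3 Control and 3 OX-LDL libraries of HK-2 cells was sequenced as read pairs. The authors deposited 1 table with estimated counts per gene, whole numbers not scaled for library size, and FPKM values, scaled by the authors for transcript length and library size with 0 listed as 0.0001. The submitters' processing notes name cutadapt 1.9, HISAT2 2.0.4, StringTie 1.3.4d, edgeR, DESeq2 and GRCh38, without roles. Coordinates matched GENCODE release 29 for 81.2% of shared identifiers and for 12 of the 30 genes, and positions are those of the deposited table.

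The genes and lists were chosen with earlier results of these data known. Libraries were grouped by their labels. No 2 libraries of a group agreed within sampling noise (chi-square per gene 12.92 to 22.2). Counts were fitted in edgeR 4.0.16 (R 4.3.3) with TMM factors (0.985 to 1.0242), glmQLFit and glmQLFTest with group as the only term, over the 19510 genes whose mean reached 0.1 FPKM, and p-values were adjusted by Benjamini-Hochberg over all of them. A gene was called at an adjusted p under 0.05. Standard errors are the log2 fold change over the square root of F. The fits were tested on simulated data. Every one of the 30 genes is named. Of the other lists, genes that passed the test are named, at most 4 a list by smallest p, and overlapping genes are named above 10% of a member's counts. Motifs were searched on both strands of RefSeq promoters (GRCh38.p14), matched by symbol. Other enzymes of the pathway were not analysed here. Alternatives were DESeq2 1.42.0, limma 3.58.1 with pseudocounts of 0.1 and 1, other scalings and minimums, a replicate block, and leaving out each library. An exact permutation test of 3 against 3 cannot go below p = 0.1 and was not used.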

Additional observations from a re-analysis of the deposited data

How the results depend on the processing

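Under RLE size factors and under library size alone, 13 members rose and 1 fell, as in the TMM fit. The count of members that fell, PMVK in the TMM fit, was 0 with no minimum FPKM, 0 with the replicate block and 0 with any 1 library left out (edgeR), where 1 to 3 members were lower at an unadjusted p under 0.05. DESeq2 and limma each called 1. With any 1 library left out, members that rose were 8 to 13 (8 without Control 2), against 13. Other pathway genes called were 6 to 13, against 14, with 6 without Control 2, OX-LDL 1 or OX-LDL 3 and 8 without Control 3. Genes called over all genes were 1161 to 2943, against 2991, with 1796, 1161 and 1993 without Control 1, 2 and 3 and 1262 and 1163 without OX-LDL 1 and 3. Same-numbered libraries did not deviate together (correlations -0.041, -0.003 and 0.036), so the numbers were not taken as pairs. With the replicate block, 10 members rose, 9 other pathway genes and 1636 of all genes were called. DESeq2 called 16 members as higher and 4430 of all genes, limma 12 members. GGPS1 had a log2 fold change of -0.22 to 0.29 with any 1 library left out, below 0 without Control 3 (-0.22) and OX-LDL 2 (-0.09). HMGCS1, MVD, FDFT1, SQLE, LBR, MSMO1, NSDHL and HSD17B7 passed the test in all of these fits. Where the construction of a fit does not show the reason, the cause was not tested. Over the members' own values, 376 kept their direction and side of the threshold, 35 kept the direction only, 7 newly passed and 2 reversed. The members held 312 to 24266 counts per library, at about 4 counts per read pair, so counting error weighs most on TM7SF2.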
